A study of Mus musculus with 36 samples.

Results

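The heat shock proteins and cochaperones described here are 10 transcripts of the cytosolic and mitochondrial chaperone system in mouse bone marrow–derived macrophages (BMDMs), Hspa1a, Hspa1b, Hspa8, Hsph1, Dnajb1, Hsp90aa1, Hsp90ab1, Hspd1, Hspe1 and Bag3. They were picked by gene name, as rows of a count table of 54532 genes, and all 10 passed the filter on low counts in every comparison. BMDMs were grown for 7 days with MCSF from the marrow of female C57BL/6 mice aged 13 to 17 weeks. WT macrophages (n = 3 replicates) came from littermates that carry Bmal1 flox/flox and no Cre, and KO macrophages (n = 6) from LysM-Cre;Bmal1 flox/flox mice, in which the LysM promoter drives Cre in myeloid cells. Floxed Bmal1 alleles are therefore shared by both genotypes, and every group was kept in culture the same way before treatment. Each genotype received DMSO vehicle, 100 µM CCM, 100 nM LPS, or 100 nM LPS with 100 µM CCM for 6 h, which gave 36 RNA-seq libraries. CCM (Core Circadian Modulator) is a small molecule made to bind the PASB domain of BMAL1, the clock transcription factor, and LPS is a bacterial cell wall component that activates macrophages. The comparisons ask what CCM does to macrophage transcripts at rest and under stimulation, and whether this depends on BMAL1.

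Heat shock proteins bind unfolded or partly folded proteins and help them fold, assemble or be degraded. HSP70 proteins (Hspa1a, Hspa1b, Hspa8) work in cycles with J-domain partners such as DNAJB1 and with nucleotide exchange factors such as HSPH1 and BAG3, and pass some clients on to HSP90 (Hsp90aa1, Hsp90ab1). HSPD1 and HSPE1 form the folding chamber of the mitochondrial matrix. Many of these genes are induced together by heat shock factor 1, which binds inverted repeats of the unit GAA upstream of its targets. In macrophages the clients of their proteins include signalling kinases and receptors.

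The libraries held 13469262 to 28288923 counts on genes (median 19951421). Levels are given as CPM as edgeR defines it, that is counts relative to the library total after scaling by TMM factors. The 10 transcripts spanned a wide range of depth. Hspa1a had 9 to 332 counts per library and Hspa1b 27 to 627, whereas Hspa8 had 21629 to 70555, so that the values of both inducible HSP70 genes carry the most counting error. A gene was called where edgeR's quasi-likelihood test gave a p of at most 0.05 after Benjamini-Hochberg adjustment over all genes tested. The study gives its n as mice of each genotype, and the labels do not name the animal behind a library, so the p-values measure the spread between these libraries. In bulk RNA, a change in the number of cells of a type and a change of RNA per cell cannot be told apart. The summed level of 8 macrophage markers was 3613 to 8683 CPM over the libraries. Bmal1 itself had 2.13 to 10.7 CPM in the 24 KO libraries (median 7.28) and 7.27 to 12.9 CPM in the 12 WT libraries (median 9.53). The low end in KO was held by replicate 6, at 2.13 to 5.01 CPM, and by KO LPS+CCM replicate 5, at 4.53 CPM. The other KO libraries had 6.39 to 10.7 CPM. The KO and WT ranges overlapped, and a count over the whole gene does not show whether the floxed exon was lost.

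KO replicate 6 stood apart from the other KO replicates for several of the 10 transcripts in all 4 treatments. Its Hspe1 level was 2.03 to 2.46 times the mean of the other 5 replicates, its Hsp90ab1 level 1.24 to 1.70 times and its Hspa8 level 1.27 to 1.59 times. Its Hsp90aa1 level was lower, at 0.597 to 0.665 times that mean, as was Hspa1b, at 0.509 to 0.708 times. The 2 cytosolic HSP90 genes thus lay on opposite sides of the other replicates in the same libraries. The summed level of 8 neutrophil markers, none of them at 0 in all libraries, was 983 to 1023 CPM in KO replicate 6, against 327 to 877 in the other KO and 323 to 538 in the WT libraries. Of the 8, S100a9 and S100a8 had the highest medians over all libraries (210 and 166 CPM). Ly6g had the lowest, 0.163 CPM, and reached at most 0.580 CPM. The part of these markers in the chaperone levels was not tested. Results in KO macrophages are therefore given with and without this replicate where it moved them.

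Per kilobase of gene length, the constitutive cytosolic chaperones were far above the inducible ones. In WT macrophages with vehicle, Hsp90ab1, the constitutive HSP90, had the highest level, 337 ± 5.77 CPM per kilobase (SD, n = 3). It was followed by Hspa8, the constitutive HSP70, at 263 ± 4.62 and by Hsp90aa1 at 75.1 ± 6.15. Both subunits of the mitochondrial chamber came next, with Hspd1 at 50.3 ± 1.78 and Hspe1 at 38.0 ± 1.18 CPM per kilobase. Bag3 (35.6 ± 1.85) overlapped Hspe1, and Dnajb1 (11.6 ± 0.10), Hsph1 (6.60 ± 0.698), Hspa1b (1.98 ± 0.605) and Hspa1a (0.650 ± 0.168) closed the order without overlap between neighbours. Under LPS with CCM the upper end of the order changed, with Hspa8 at 591 ± 25.8 and Hsp90ab1 at 578 ± 13.9 CPM per kilobase, whose ranges overlapped. Together the 10 transcripts took 0.330 ± 0.0144% of all counts in WT vehicle libraries, 0.326 ± 0.0174% with CCM, 0.419 ± 0.0100% with LPS and 0.495 ± 0.0204% with LPS and CCM. The same shares in KO macrophages (n = 6) were 0.334 ± 0.0253%, 0.334 ± 0.0264%, 0.430 ± 0.0227% and 0.505 ± 0.0239%.

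**Figure D1:**
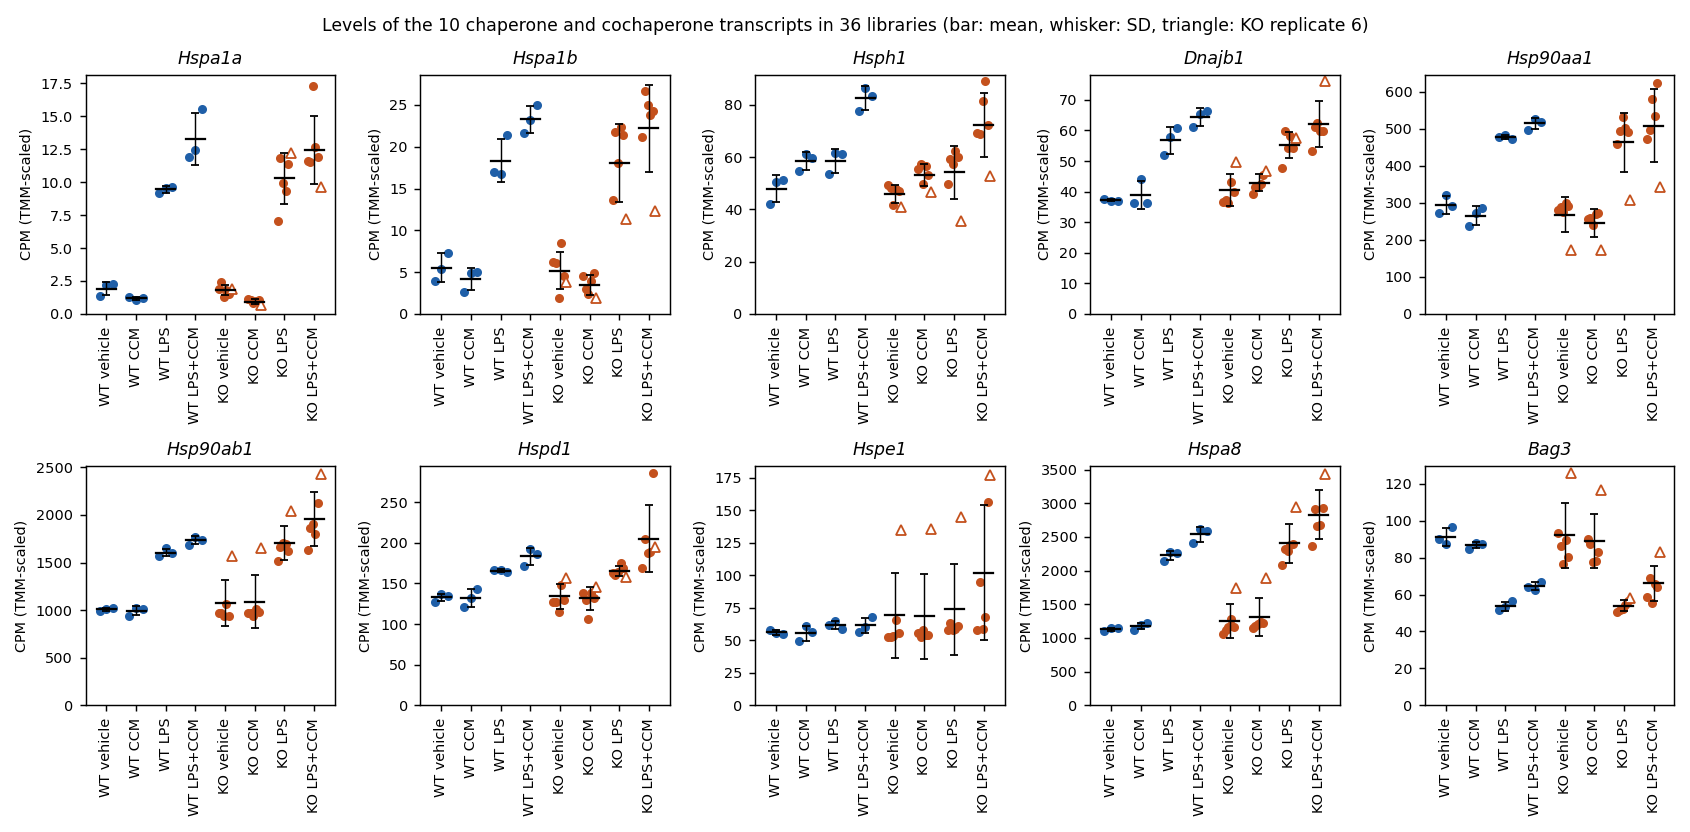
Levels of the 10 transcripts as TMM-scaled CPM on linear axes that start at 0, with 1 point per library, the group mean as a bar and the SD as a whisker (WT n = 3, KO n = 6). Hspa1a and Hspa1b rise most with LPS, Bag3 falls, and the open triangles of KO replicate 6 lie above the other KO points for Hspe1 and below them for Hsp90aa1.

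Hspa1a (ENSMUSG00000091971, chr17:34969190-34972156, minus strand) and Hspa1b (ENSMUSG00000090877, chr17:34956436-34959238, minus strand) are single-exon genes for near-identical inducible HSP70 proteins. Positions are those of the deposited table, which match GENCODE mouse release 21 on the build GRCm38 for all 10 genes. The coding sequences of this pair are identical at 1889 positions (98.1% of the longer one), with an unbroken identical run of 638 bases. Read pairs within such runs cannot be assigned to 1 of the pair, and the setting for such reads is not given in the sources used here, so their split counts are uncertain. Hspa1a also overlaps the predicted gene Gm20481 on the opposite strand over 2225 bases. The ratio of Hspa1b to Hspa1a counts was 0.930 to 4.61 over the 36 libraries (median 2.13).

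Upstream sequences were available for 7 of the 10 genes in RefSeq promoter windows (build GRCm38.p6), that is for all but Hsp90aa1, Hsp90ab1 and Hspa8. They are shown for the genes in which a heat shock element was found, since these include the transcripts with the largest LPS response and the one with the steadiest CCM response. The motifs searched on both strands of the 250 bases before each start were the pairs GAANNTTC and TTCNNGAA, each its own reverse complement, the triplets in which a further unit follows a pair at the same spacing, which therefore contain the pairs, and the E-box CACGTG, the site BMAL1 and CLOCK are known to bind. A pair was found in 12.8% of all 32851 windows and in those of 5 of the 7 genes, a triplet in 0.466% of windows and in those of Hspd1 and Hspe1, and an E-box in 6.02% of windows and in those of Hsph1 and Hspd1. The sequences below read 5′ to 3′ on the gene's strand with the heat shock units in capitals. Hspa1a (chr17:34972177-34972306) and Hspa1b (chr17:34959259-34959388) were identical at all 130 positions from 150 to 21 bases before the start, with a pair 104 to 97 bases before it.
Hspa1a and Hspa1b: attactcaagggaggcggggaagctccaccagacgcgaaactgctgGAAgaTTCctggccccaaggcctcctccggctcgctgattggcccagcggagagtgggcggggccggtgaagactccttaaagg
Hsph1: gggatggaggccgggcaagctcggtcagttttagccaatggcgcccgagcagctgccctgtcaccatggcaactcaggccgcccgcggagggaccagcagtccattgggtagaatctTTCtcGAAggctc
Hspe1: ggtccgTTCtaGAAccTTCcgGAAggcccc
The Hsph1 sequence (chr5:149636357-149636486, minus strand) has its pair 33 to 26 bases before the first of 2 annotated starts, and an E-box lay 19 to 14 bases before the other start. In the deposited table, however, Hsph1 begins at 149636376. An annotated Hsph1 exon covers the last 20 bases of this sequence, which hold the pair, and the E-box lies downstream of the first start. The Hspe1 site (chr1:55088053-55088082, plus strand) holds both triplets, which overlap and span 89 to 72 bases before its start. All 30 bases shown for it lie in an annotated Hspd1 exon. Hspd1 runs the other way from the same region, and the same units lie 144 to 127 bases before 1 of its 2 annotated starts. No pair, triplet or E-box was found in the windows of Dnajb1 and Bag3.

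Under LPS alone, 9 of the 10 transcripts were called in WT macrophages, 8 higher and 1 lower, where 63.0% of all 14501 genes tested were called. The inducible HSP70 genes rose most, the constitutive Hspa8 rose 1.98-fold, and Dnajb1, Hsp90ab1 and Hsp90aa1 rose 1.54- to 1.62-fold. Bag3, a partner of HSP70 in selective autophagy, was the 1 transcript that fell, and Hspe1 was not called. The median log2 fold change was 0.65 over the 10 transcripts and -0.05 over all genes tested. The scaling mattered for LPS. The median over all genes was -0.47 with library totals alone in place of TMM, so directions near that shift depend on the scaling. Of all genes, 30.6% were called higher and 32.4% lower with TMM, and 17.6% and 55.6% with library totals alone, where 6 of the 10 transcripts were called higher and 2 lower. The summed macrophage markers rose with LPS as well, from 4664 to 4923 CPM in WT vehicle to 7813 to 8131 CPM in WT LPS libraries. Single genes weigh heavily in this sum. Over all libraries Cd14 ran from 261 to 3718 CPM and Adgre1 from 270 to 2513 CPM, whereas Csf1r ran from 1296 to 2302 CPM. The rise of the sum is therefore not a measure of macrophage number. Summed neutrophil markers were lower, at 500.5 to 538 CPM with vehicle against 391 to 433 CPM, as were the 5 B cell markers, at 3.31 to 4.28 against 2.16 to 3.31 CPM. The 5 T cell markers summed to 23.5 to 27.0 CPM against 11.8 to 16.8 CPM, most of it Cd4 (median 17.1 CPM over all libraries), with Cd3d, Cd3e, Cd3g and Cd8a at medians of 0.0803 to 0.114 CPM. The 5 fibroblast and stromal markers had the highest median sum after the macrophage list, 690 CPM over all libraries (295 to 1659). In WT they summed to 476 to 1351 CPM with vehicle and 514 to 729 CPM with LPS. Col1a1 and Col1a2 had the highest medians of this list over all libraries (308 and 279 CPM), and Dcn and Pdgfra the lowest (4.64 and 5.29 CPM). The part of these lists in the result was not tested. A fit of all 36 libraries ended the calls of Hsph1 (adjusted p = 0.158) and Hspd1 (adjusted p = 0.0685).

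Hspa1a had 1.36, 2.16 and 2.27 CPM in the 3 WT vehicle libraries and 9.15, 9.53 and 9.62 CPM in the WT LPS libraries. The groups lay far apart, and by edgeR the log2 fold change was 2.29 (adjusted p = 4.60e-06, standard error 0.202). Hspa1b had 3.97, 5.34 and 7.34 CPM with vehicle and 16.9, 16.7 and 21.4 CPM with LPS, again without overlap, and its log2 fold change was 1.72 (standard error 0.208, adjusted p = 4.72e-05). With the counts of both genes summed, which removes the question of how shared reads were split, the log2 fold change was 1.89 (standard error 0.184, adjusted p = 9.76e-06). In KO macrophages, Hspa1a ranged from 1.31 to 2.45 CPM with vehicle (median 1.86, n = 6) and from 7.05 to 12.2 CPM with LPS (median 10.7). Hspa1b ranged from 1.91 to 8.46 CPM (median 5.36) and from 11.3 to 22.4 CPM (median 19.7). Neither gene overlapped between the groups, and the log2 fold changes in KO were 2.49 for Hspa1a (standard error 0.191, adjusted p = 1.85e-07) and 1.78 for Hspa1b (standard error 0.299, adjusted p = 0.000242). Without KO replicate 6 they were 2.44 and 1.80.

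Hspa8 (ENSMUSG00000015656, chr9:40800984-40810087, plus strand), which encodes the constitutive HSC70 and hosts 3 small nucleolar RNA genes, had 1108, 1141 and 1143 CPM in WT vehicle and 2150, 2270 and 2264 CPM in WT LPS libraries. No LPS library came near a vehicle library, and the log2 fold change was 0.98 (standard error 0.0566, adjusted p = 1.73e-07). In KO macrophages it went from 1063 to 1738 CPM (median 1156) to 2085 to 2949 CPM (median 2350), a log2 fold change of 0.93 (standard error 0.147, adjusted p = 0.000147). The highest value in each KO group was that of replicate 6, and without it the log2 fold change was 0.98.

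Hsph1 (ENSMUSG00000029657, chr5:149614287-149636376, minus strand) encodes HSP110, an exchange factor for HSP70. It had 42.1, 50.5 and 51.2 CPM in WT vehicle and 53.4, 61.4 and 61.3 CPM in WT LPS libraries. These ranges did not overlap but were close, and the log2 fold change was 0.30 (standard error 0.0931, adjusted p = 0.0176). The call was lost without WT LPS replicate 2 (adjusted p = 0.0667) or replicate 3 (adjusted p = 0.0599), and with library totals alone the value was -0.11. In KO macrophages Hsph1 went from 41.1 to 49.4 CPM (median 47.4) to 35.8 to 62.6 CPM (median 58.3) and was not called, and the log2 fold change was 0.22 (standard error 0.123, adjusted p = 0.158). Replicate 6 held the lowest KO value under LPS, the only KO pair of libraries in which Hsph1 was lower with LPS. Without that replicate the log2 fold change was 0.29 (adjusted p = 0.00206), and in the fit blocked on the replicate number it was 0.22 (adjusted p = 0.0230), while library totals alone gave -0.15.

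Dnajb1 (ENSMUSG00000005483, chr8:83608193-83612653, plus strand) encodes an HSP40 protein that delivers clients to HSP70. It had 37.5, 36.9 and 37.0 CPM in WT vehicle and 51.9, 57.8 and 60.7 CPM in WT LPS libraries, a log2 fold change of 0.62 (standard error 0.0712, adjusted p = 3.29e-05). The vehicle values were within 1 CPM of each other and below all LPS values. The KO values were 36.3 to 49.8 CPM (median 38.6) with vehicle and 47.8 to 59.7 CPM (median 55.9) with LPS, and their log2 fold change was 0.44 (standard error 0.106, adjusted p = 0.00408). Here the ranges overlapped through the vehicle library of replicate 6, without which the value was 0.49, and with library totals alone it was 0.06 and no longer called.

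Of the cytosolic HSP90 pair, Hsp90aa1 (ENSMUSG00000021270, chr12:110690605-110702728, minus strand) is the stress-responsive form. It had 273, 321 and 292 CPM in WT vehicle and 477, 483 and 472 CPM in WT LPS libraries, a log2 fold change of 0.70 (standard error 0.0665, adjusted p = 8.17e-06). The constitutive Hsp90ab1 (ENSMUSG00000023944, chr17:45567775-45573271, minus strand) had 990, 1014 and 1024 CPM and then 1569, 1649 and 1596 CPM, for a log2 fold change of 0.67 (standard error 0.0550, adjusted p = 2.51e-06). Both forms rose by about the same factor in WT, and neither overlapped between the groups. In KO macrophages Hsp90aa1 went from 172 to 300 CPM (median 285) to 306 to 530 CPM (median 492), a log2 fold change of 0.77 (standard error 0.151, adjusted p = 0.000803). Hsp90ab1 went from 934 to 1564 CPM (median 972) to 1512 to 2038 CPM (median 1675), a log2 fold change of 0.66 (standard error 0.151, adjusted p = 0.00276). The Hsp90ab1 ranges overlapped only through replicate 6, and without it the values were 0.77 for Hsp90aa1 and 0.73 for Hsp90ab1. With library totals alone the KO value of Hsp90aa1 was 0.38 and no longer called (adjusted p = 0.135).

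Hspd1 (ENSMUSG00000025980, chr1:55077835-55088243, minus strand) and Hspe1 (ENSMUSG00000073676, chr1:55088132-55091307, plus strand) encode HSP60 and its lid HSP10. Their annotated intervals overlap over 112 bases on opposite strands, and whether the counting used strand is not given in the sources used here, so counts from that stretch are uncertain. Hspd1 had 128, 137 and 134 CPM in WT vehicle and 167, 166 and 164 CPM in WT LPS libraries, a log2 fold change of 0.32 (standard error 0.0538, adjusted p = 0.000452), which was -0.09 with library totals alone. In KO it went from 115 to 156 CPM (median 129) to 158 to 175 CPM (median 164), a log2 fold change of 0.29 (standard error 0.0907, adjusted p = 0.0180), which was -0.08 with library totals alone. That KO call was lost on leaving out replicate 1 (adjusted p = 0.0675), 2 (0.0603), 3 (0.0696) or 5 (0.0757), and kept without replicate 6 (0.000227). Hspe1 was called in neither genotype. Its WT values of 58.0, 55.4 and 54.8 CPM with vehicle and 61.4, 65.0 and 58.7 CPM with LPS gave a log2 fold change of 0.14 (standard error 0.0625, adjusted p = 0.0693), past the threshold without WT vehicle replicate 1 (adjusted p = 0.0374) or WT LPS replicate 3 (adjusted p = 0.0499). With library totals alone it was lower with LPS instead, with a value of -0.27 (adjusted p = 0.00307). In KO macrophages Hspe1 went from 52.1 to 135 CPM (median 54.5) to 57.5 to 145 CPM (median 59.6), with the top value of each group in replicate 6. The KO log2 fold change was 0.09 (standard error 0.316), against 0.07 without that replicate and -0.29 with library totals alone.

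Bag3 (ENSMUSG00000030847, chr7:128523616-128546981, plus strand), which shares 612 bases on the same strand with the gene 2610306O10Rik, moved against the other transcripts. It had 90.0, 87.3 and 96.5 CPM in WT vehicle and 51.5, 53.4 and 56.3 CPM in WT LPS libraries, a log2 fold change of -0.76 (standard error 0.0671, adjusted p = 4.65e-06). In KO macrophages it went from 76.4 to 126 CPM (median 88.0) to 50.4 to 58.2 CPM (median 53.2), a log2 fold change of -0.79 (standard error 0.126, adjusted p = 0.000168), and -0.70 without replicate 6. No LPS library reached a vehicle library in either genotype, and the direction was the same with library totals alone. Across KO macrophages, 8 of the 10 transcripts were called under LPS, 7 higher and Bag3 lower, where 47.1% of 13648 genes were called, 22.4% higher and 24.7% lower. The median over the 10 was 0.55, against -0.05 over all genes tested.

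**Figure D2:**
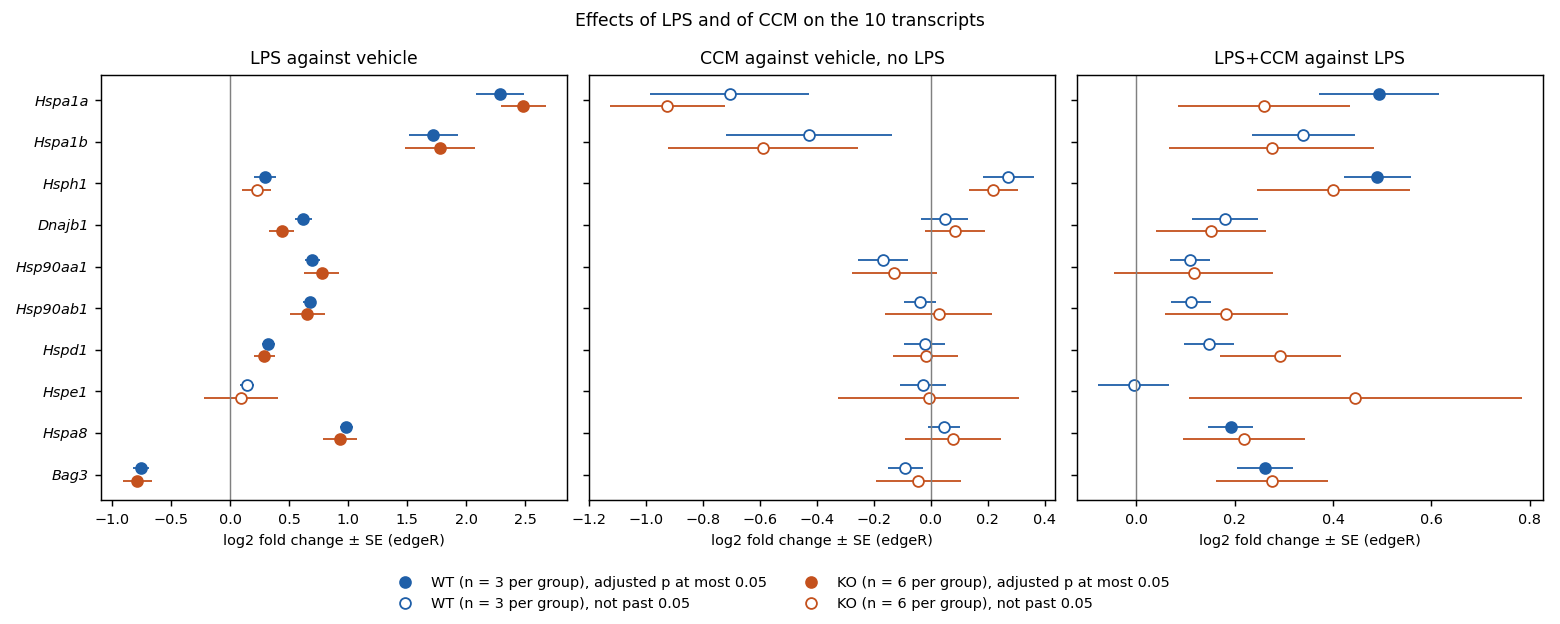
Log2 fold changes with standard errors for LPS against vehicle, CCM against vehicle and LPS+CCM against LPS, with WT in blue and KO in orange and filled points at an adjusted p of at most 0.05 (the x axes differ between panels). Bag3 is the transcript left of 0 in the LPS panel (-0.76 in WT and -0.79 in KO), where Hsph1, Hspd1 and Hspe1 would join it with library totals alone, and in the right panel all values but that of Hspe1 in WT (-0.01, or 0.07 with library totals alone) are above 0.

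Without LPS, CCM changed none of the 10 transcripts past the threshold in either genotype. In WT, 0 of the 10 were called by edgeR, where 0.0570% of 14024 genes were called. Of the 10, 2 had an unadjusted p under 0.05, as had 1404 of all genes tested. In KO, 0 of the 10 were called by edgeR, where 0 of 13799 genes were called, and the same number, 2, had an unadjusted p under 0.05 (2.41% of all genes), while DESeq2 called 0 in WT and 1 in KO. The transcripts below that level were Hspa1a and Hsph1 in both genotypes. The median log2 fold change of the 10 was -0.03 in WT and -0.01 in KO, near the -0.01 and 0.01 over all genes tested.

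Hspa1a, already the least abundant of the 10, was lower with CCM in every pair of libraries of the same replicate number. For WT without LPS, numbers were not read as pairs. The WT CCM libraries held 1.28, 1.06 and 1.23 CPM (23 to 30 counts), all below the vehicle libraries given above, a log2 fold change of -0.71 (standard error 0.280, adjusted p = 0.454). In KO the CCM libraries held 0.654 to 1.10 CPM (median 1.01, 9 to 30 counts), also all below the lowest vehicle library, a log2 fold change of -0.93 (standard error 0.201, adjusted p = 0.605). In KO, where the deviations do not settle whether like numbers are pairs, the fit blocked on that number gave Hspa1a a value of -0.90 (adjusted p = 0.0407). DESeq2 also called it in KO (-0.92, adjusted p = 0.0495), as did a fit of all 36 libraries (-0.92, adjusted p = 0.0228). Without KO replicate 6, which had 9 counts, the value was -0.84 (adjusted p = 0.0770). Summed with Hspa1b it was -0.50 in WT (adjusted p = 0.550) and -0.67 in KO (adjusted p = 1).

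Hsph1 moved the other way. It had 54.8, 61.2 and 59.6 CPM with CCM in WT macrophages, above all 3 vehicle libraries, and its log2 fold change was 0.27 (standard error 0.0892, adjusted p = 0.350). In KO it had 46.8 to 57.5 CPM (median 54.3), a range that overlapped that of the vehicle libraries. It was higher in 6 of 6 pairs by 0.17 to 0.25 on the log2 scale. The KO log2 fold change was 0.22 (standard error 0.0866, adjusted p = 1), and with the replicate block 0.22 (adjusted p = 0.0182). The other 8 transcripts had log2 fold changes between -0.43 and 0.05 in WT and between -0.59 and 0.09 in KO, with Hspa1b at the lower end in both.

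Under LPS, CCM raised 4 of the 10 transcripts in WT macrophages and lowered none, where 11.9% of 13579 genes were called, 4.15% higher and 7.78% lower. The 4 were Hspa1a, Hsph1, Bag3 and Hspa8, that is the inducible and the constitutive HSP70 with 2 of their exchange factors. For 9 of the 10 the LPS+CCM libraries all lay above the LPS libraries, as they did for 15.2% of all genes tested, and 9 had an unadjusted p under 0.05, as had 25.7% of all genes tested. The median log2 fold change was 0.19 over the 10 transcripts and 0.01 over all genes tested. With library totals alone, under which 11.3% of genes were called higher and 5.40% lower and the median over all genes was 0.09, 9 of the 10 transcripts were called higher and Hspe1 had a value of 0.07.

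Hspa1a had 11.9, 12.4 and 15.5 CPM with LPS and CCM, against 9.15, 9.53 and 9.62 CPM with LPS alone, a log2 fold change of 0.49 (standard error 0.122, adjusted p = 0.0259). For Hsph1 the values were 77.6, 86.7 and 83.3 CPM against 53.4, 61.4 and 61.3 CPM, and the log2 fold change was 0.49 (standard error 0.0686, adjusted p = 0.00119). Hsph1 was the transcript of the 10 with the smallest adjusted p, and it was higher in 3 of 3 same-numbered pairs by 0.44 to 0.54. Bag3 had 64.1, 62.4 and 66.7 CPM against 51.5, 53.4 and 56.3 CPM, for a log2 fold change of 0.26 (standard error 0.0567, adjusted p = 0.0144). It thereby stayed below its vehicle level, at 0.706 times that level in WT LPS+CCM libraries. Hspa8 had 2415, 2622 and 2589 CPM against 2150, 2270 and 2264 CPM, for a log2 fold change of 0.19 (standard error 0.0463, adjusted p = 0.0233).

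The other inducible HSP70 gene and the J-domain partner were higher by a similar or smaller amount and were not called. Hspa1b had 21.7, 23.2 and 25.0 CPM with both agents and 16.7 to 21.4 CPM with LPS alone (log2 fold change 0.34, standard error 0.105, adjusted p = 0.0628), and the summed counts of Hspa1a and Hspa1b gave 0.39 (standard error 0.0909, adjusted p = 0.0190). Dnajb1 had 61.1, 65.5 and 66.5 CPM against 51.9 to 60.7 CPM (0.18, standard error 0.0674, adjusted p = 0.119). Both HSP90 genes differed by 0.11 (standard errors 0.0412 and 0.0413, adjusted p = 0.123 for Hsp90aa1 and 0.115 for Hsp90ab1), and Hspd1 by 0.15 (standard error 0.0512, adjusted p = 0.0953). Hspe1 had 56.6, 60.0 and 67.5 CPM against 61.4, 65.0 and 58.7 CPM, and the log2 fold change was -0.01 (standard error 0.0722). The 2 subunits of the mitochondrial chamber therefore differed in their values, though the difference between them was not tested.

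How many of these transcripts were called depended on the treatment of the replicates. Deviations from the group means had correlations of 0.122 to 0.283 within the 3 same-numbered pairs here. A fit blocked on the number called 9 of the 10, all but Hspe1, with adjusted p from 3.68e-07 for Hsph1 to 0.0195 for Hsp90aa1. The same blocked fit called 3220 of all 13579 genes, or 23.7%, against 11.9% without the block. In a fit of all 36 libraries, which takes 1 spread from WT and KO, 0 of the 10 and 17 of 15720 genes were called by edgeR. Hsph1 was called on leaving out any of the 6 libraries, whereas Hspa1a was lost without WT LPS replicate 1 (adjusted p = 0.0550), 2 (0.0874) or 3 (0.0640) and without WT LPS+CCM replicate 2 (0.0584) or 3 (0.0896). Hspa8 was lost without WT LPS replicate 1 (0.0736) or 2 (0.0692) and without WT LPS+CCM replicate 2 (0.0980) or 3 (0.0743), and Bag3 without WT LPS replicate 2 (0.0660) or WT LPS+CCM replicate 3 (0.0551). Leaving out WT LPS replicate 3 added Hspa1b (0.0123), and leaving out WT LPS+CCM replicate 1 added Hspd1 (0.0456).

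In LPS-treated KO macrophages the values were above 0 for all 10 transcripts. By edgeR on these libraries 0 of the 10 were called, where 0.112% of 13386 genes were called, and by DESeq2 0 were called. Hsph1, Bag3 and Hspd1, 3 of the 10, had an unadjusted p under 0.05, as had 7.99% of all genes. Hsph1 had 52.9 to 89.0 CPM (median 70.9) with both agents and 35.8 to 62.6 CPM (median 58.3) with LPS alone, a log2 fold change of 0.40 (standard error 0.156, adjusted p = 0.492). It was higher in 6 of 6 same-numbered pairs, by 0.21 to 0.56, and without replicate 6 the value was 0.40 (adjusted p = 0.0775). Hsph1 was the 1 transcript called here in a fit of all 36 libraries (0.42, adjusted p = 0.0434). Bag3 had 55.5 to 82.9 CPM (median 64.8) against 50.4 to 58.2 CPM (median 53.2), a log2 fold change of 0.28 (standard error 0.113, adjusted p = 0.529) and 0.24 without replicate 6. Hspa8 had 2364 to 3435 CPM (median 2801) against 2085 to 2949 CPM (median 2350), and the log2 fold change was 0.22 (standard error 0.124, adjusted p = 0.730). Both were also higher in 6 of 6 same-numbered pairs, although the ranges overlapped. Numbers were not read as pairs in this comparison.

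Hspa1a differed in sign between the same-numbered pairs. It had 9.62 to 17.3 CPM (median 11.8) with both agents and 7.05 to 12.2 CPM (median 10.7) with LPS alone, higher in 4 of 6 pairs by between -0.34 and 0.80 on the log2 scale. The log2 fold change was 0.26 (standard error 0.175, adjusted p = 0.796), and 0.39 (adjusted p = 0.244) without replicate 6, in which the value was lowest. Hspe1 was spread more widely, at 57.7, 94.7, 58.7, 68.2, 156 and 177 CPM in KO LPS+CCM replicates 1 to 6, and Hspd1 had 168 to 204 CPM in 5 of these libraries and 286 CPM in replicate 5. The log2 fold changes were 0.44 for Hspe1 (standard error 0.339) and 0.29 for Hspd1 (standard error 0.123), neither of them called (adjusted p = 0.827 and 0.546). KO replicate 5 was thus high for both subunits of the mitochondrial chamber under LPS with CCM, where its Hspe1 level was 1.36 above that of LPS alone on the log2 scale, and KO replicate 6 was high for Hspe1 in all 4 treatments. These libraries also stood apart over all genes. By chi-square per degree of freedom between counts, KO LPS+CCM replicates 1, 3 and 4 differed by 11.1 to 18.6 among themselves. Against them replicate 2 gave 56.0 to 61.7, replicate 5 gave 167 to 173 and replicate 6 gave 307 to 339. The part of these differences in the KO values was not tested.

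**Figure D3:**
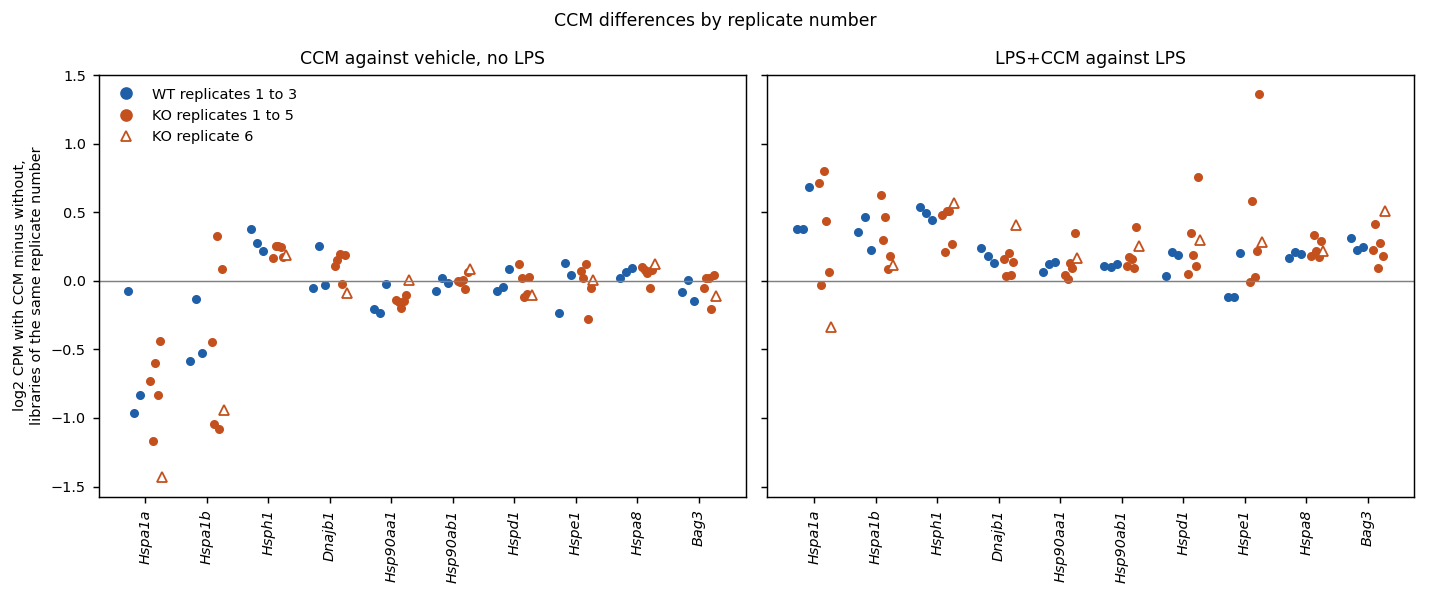
Difference in log2 CPM between the libraries with and without CCM of the same replicate number, without LPS (left) and under LPS (right), for WT replicates 1 to 3 (blue), KO replicates 1 to 5 (orange) and KO replicate 6 (open triangle). Hsph1 lies above 0 in all 18 same-numbered differences, while Hspa1a lies below 0 in all 9 without LPS and above 0 in 7 of 9 under LPS. Numbers were read as pairs only for KO without LPS and for WT under LPS.

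Hspa1a and Bag3 were the 2 transcripts for which the CCM effect with LPS differed from that without LPS in WT macrophages, tested as the LPS by CCM interaction in the 12 WT libraries, where 2.09% of 14747 genes were called, 0.468% with a positive and 1.62% with a negative difference. The difference was 1.19 for Hspa1a (standard error 0.268, adjusted p = 0.0374) and 0.34 for Bag3 (standard error 0.0791, adjusted p = 0.0437), on the log2 scale. For Hspa1a the CCM value was -0.71 without LPS and 0.49 with LPS, in separate sets of libraries. All 10 transcripts had a difference above 0, with a median of 0.18 against 0.02 over all genes tested, and 4 had an unadjusted p under 0.05, as had 14.0% of all genes. Both calls were near the threshold. When each of the 12 libraries was left out in turn, Hspa1a was still called without WT vehicle replicate 1 or WT LPS+CCM replicate 1 and was lost without any of the other 10 (adjusted p = 0.0675 to 0.102), and Bag3 was lost in all 12 fits (adjusted p = 0.0503 to 0.136). With the counts of Hspa1a and Hspa1b summed the difference was 0.88 (adjusted p = 0.114). In KO macrophages the difference was 1.20 for Hspa1a (standard error 0.248, adjusted p = 0.248) and 0.34 for Bag3 (standard error 0.184, adjusted p = 1). Of 14588 genes, 0.00685% were called there by edgeR, and 0 of the 10, of which 3 had an unadjusted p under 0.05, against 3.67% of all genes. Hspa1a was called in KO by DESeq2 (1.17, adjusted p = 0.0496), and by edgeR without replicate 6 it was not (1.24, adjusted p = 0.0760).

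Genotype made no detectable difference to the 10 transcripts at this spread. Between KO and WT macrophages, 0 of the 10 were called by edgeR with vehicle or with LPS, 0 had an unadjusted p under 0.05 in either comparison, DESeq2 called 0 in both, and 0 of 14385 and 0 of 13794 genes were called. The log2 differences ran from -0.13 to 0.32 with vehicle and from -0.11 to 0.26 with LPS, with standard errors of 0.111 to 0.394 and 0.0835 to 0.303. Hspe1 had the highest of these values in both, at 69.1 ± 32.6 CPM in KO and 56.1 ± 1.73 CPM in WT with vehicle, and the KO mean was 56.0 ± 5.72 CPM (n = 5) without replicate 6. The difference between genotypes in the CCM effect under LPS, the comparison that bears on whether CCM needs BMAL1 here, ran from -0.22 for Hspa1a to 0.47 for Hspe1, with standard errors of 0.164 to 0.514. For Hsph1 it was -0.08 (standard error 0.230) and for Bag3 0.03 (standard error 0.165). The difference in the LPS effect ran from -0.16 to 0.22, with standard errors of 0.130 to 0.465. By edgeR 0 of the 10 were called in either, with 0 at an unadjusted p under 0.05 and 0 by DESeq2, and 0 of 14546 and 0 of 15093 genes were called. In simulated counts with gene changes of 1 on the log2 scale, edgeR recovered 1.02% for the CCM difference and 13.8% for the LPS difference. It recovered 26.2% for KO against WT with vehicle and 41.8% with LPS. The 0 calls therefore cannot decide whether CCM needs BMAL1 here.

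Over the 36 libraries the 10 transcripts did not all follow each other. The Pearson correlation of each transcript's log2 CPM with the mean of the other 9, on scaled values, was highest for Hspa8 (0.94), Hspd1 (0.93), Hsp90ab1 (0.93) and Dnajb1 (0.92). It was lower for Hsph1 (0.55) and Hspe1 (0.38) and was -0.67 for Bag3. These libraries share the LPS contrast, which sets much of each value. After subtraction of the group means Bag3 had 0.50 and Hsp90aa1 -0.34, values to which KO replicate 6 contributes. Among 8773 other genes, those most like the mean of the 10 were Pgk1 (0.96), a glycolytic enzyme, Tars (0.96), the threonyl-tRNA synthetase, Cct6a (0.95), a subunit of the cytosolic chaperonin, Cybc1 (0.95) and Eif1ax (0.95). After subtraction of the group means they were Ybx3 (0.76), Dnajc2 (0.73), Phlda1 (0.73), Ifitm3 (0.73) and Znhit6 (0.72). These are descriptions over 36 libraries with no test.

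Processed copies of 2 members appear in the table under their own names. Of 11 such pseudogene rows for Hspd1 and Hspe1, Hspd1-ps3 had 22 to 337 counts per library, 3.40% of the Hspd1 counts in all, and the other 10 had at most 24 counts over all 36 libraries. By edgeR Hspd1-ps3 was called higher for CCM under LPS in WT (log2 fold change 1.19, standard error 0.274, adjusted p = 0.0189). It was also called for the LPS by CCM interaction in WT (2.37, adjusted p = 0.0177), whereas Hspd1 was called in neither. For CCM under LPS in KO its value was -0.10 (adjusted p = 0.936).

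The wider chaperone network was examined through 7 further lists with 91 genes in all, of which 85 passed the filter for LPS in WT macrophages. Of these, 38 were called higher and 20 lower with LPS, 68.2% in all, near the 63.0% over all genes tested. With library totals alone 13 were called higher and 43 lower. The cytosolic chaperonin and prefoldin, which fold actin, tubulin and other clients, were the most one-sided list, with 12 of 14 called higher and 0 lower and a median log2 fold change of 0.45. Examples are Cct3 (from 121 ± 5.13 to 230 ± 4.99 CPM, log2 fold change 0.93), Pfdn4 (0.62) and Cct8 (0.61). With library totals alone 4 of the 14 were called higher and 2 lower, and the median was 0.03. In KO macrophages 8 of the 14 were called higher and 0 lower, with a median of 0.48, and Cct3 (0.92), Cct8 (0.64) and Vbp1 (0.62) led, while library totals alone left 3 higher and 0 lower.

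HSP90 cochaperones were divided under LPS in WT macrophages, with 6 of 15 called higher and 3 lower and a median of -0.08. The counts turned to 3 higher and 8 lower with library totals alone, with a median of -0.49. Stip1, the adaptor that joins HSP70 to HSP90, rose from 74.7 ± 1.95 to 187 ± 4.09 CPM (log2 fold change 1.33, standard error 0.0535), and Chordc1 (1.0) and Ptges3 (0.67), the p23 cochaperone, also rose. The immunophilins Fkbp4 (-0.58) and Fkbp5 (-0.32) and the HSP90 activator Ahsa1 (-0.20) were called lower. In KO, 3 of 15 were higher (Stip1 1.36, Chordc1 0.91, Ptges3 0.77) and 1, Ppid (-0.22), was lower, and library totals alone gave 3 and 8. The values of Stip1 and Chordc1 were above those of both HSP90 genes, a difference that was not tested.

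Of the HSP70 relatives, J-domain proteins and exchange factors, 10 of 20 tested were called higher and 6 lower in WT, with a median of 0.28, but 5 higher and 8 lower with library totals alone, with a median of -0.14. Dnaja1 rose from 110 ± 4.84 to 282 ± 9.56 CPM (1.37), and Dnajb6 (1.26) and Dnaja2 (1.19), J-domain proteins like it, rose nearly as much and by more than Dnajb1 (0.62). The exchange factors Bag2 (-1.28) and Bag4 (-0.78) fell along with Bag3, as did Hspa2 (-0.54). The KO counts were 6 higher and 5 lower, with the same 3 genes at each end (Dnaja1 1.30, Dnajb6 1.20, Dnaja2 1.15, Bag2 -1.06, Bag4 -0.90, Hspa2 -0.81), and they were 3 and 7 with library totals alone.

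Of the heat shock factor list, Hsf2 (0.51) and Hsf1 (0.25) were called higher and Hsf4 (-1.86) lower in WT, of 4 genes tested, and in KO Hsf4 (-1.64) was the 1 call. Hsf1, the main activator of heat shock genes, had 29.1 ± 3.06 CPM with vehicle and 34.6 ± 2.89 CPM with LPS, and its value turned to -0.16 with library totals alone, which left 0 of the 4 higher and 2 lower in each genotype. Small heat shock proteins had 1 call of 6 in each genotype, Hspb6, which fell (-1.29 in WT and -1.01 in KO), and library totals alone gave 4 lower in WT and 2 in KO. Of 11 mitochondrial chaperones and proteases, 4 were higher and 3 lower in WT and 2 and 1 in KO, whereas library totals alone gave 0 and 8 in WT and 0 and 5 in KO. Hspa9, the mitochondrial HSP70, had a log2 fold change of 0.36 in WT and KO, Grpel2 0.35 and 0.37, and Trap1, the mitochondrial HSP90, 0.33 in WT, and with library totals alone all 3 were below 0 in WT, as was Hspa9 in KO. Hscb (-1.49 in WT and -1.37 in KO), Clpb (-0.29) and Clpp (-0.28) were called lower, the last pair in WT. Endoplasmic reticulum chaperones had 4 of 15 higher and 6 lower in WT (Hspa5 0.64, Manf 0.27, Dnajb11 0.24, Sdf2l1 -0.82, Pdia4 -0.50, Dnajc3 -0.43) and 1 higher and 4 lower in KO (Hspa5 0.57, Sdf2l1 -0.78, Pdia4 -0.49, Dnajc3 -0.46), and with library totals alone 1 was higher and 11 lower in WT, 0 and 8 in KO, and Manf and Dnajb11 were below 0 in WT. In KO 33 of the 85 genes were called in all, 20 higher and 13 lower, 38.8% against 47.1% of all genes tested, and library totals alone gave 9 higher and 32 lower.

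CCM under LPS moved few of these genes. In WT macrophages 6 of the 84 tested were called (7.14%, against 11.9% of all genes), 1 higher and 5 lower, and with library totals alone 9 were called higher and 3 lower. The 1 called higher was Fkbp4, an HSP90 cochaperone of steroid receptors, which had 38.6 ± 2.87 CPM with LPS and 52.1 ± 3.46 CPM with LPS and CCM (log2 fold change 0.43, standard error 0.0725, adjusted p = 0.00360). The 5 called lower were the J-domain genes Dnaja2 (-0.46, from 280 ± 16.3 to 204 ± 6.83 CPM) and Dnajb6 (-0.26), the HSP110 relative Hspa4l (-0.24), the prefoldin subunit Pfdn4 (-0.34) and Hspa5 (-0.39), the HSP70 of the endoplasmic reticulum. Of these 6, Dnaja2, Dnajb6, Hspa4l (from 34.9 ± 2.63 to 74.4 ± 5.66 CPM), Pfdn4 and Hspa5 had risen with LPS and Fkbp4 had fallen. The LPS and CCM comparisons share the WT LPS libraries. The LPS by CCM interaction in WT was called for Dnaja2 (-0.41, adjusted p = 0.0136) and Dnajb6 (-0.29, adjusted p = 0.0499) of these lists. List medians for CCM under LPS in WT were 0.11 for the HSP90 cochaperones, 0.01 for the HSP70 relatives, -0.21 for the small heat shock proteins, 0.04 for the heat shock factors, 0.08 for the mitochondrial list, -0.02 for the chaperonin and -0.03 for the endoplasmic reticulum list. By edgeR 0 of these genes were called for CCM without LPS in WT, for CCM without LPS in KO or for CCM under LPS in KO.

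**Figure D4:**
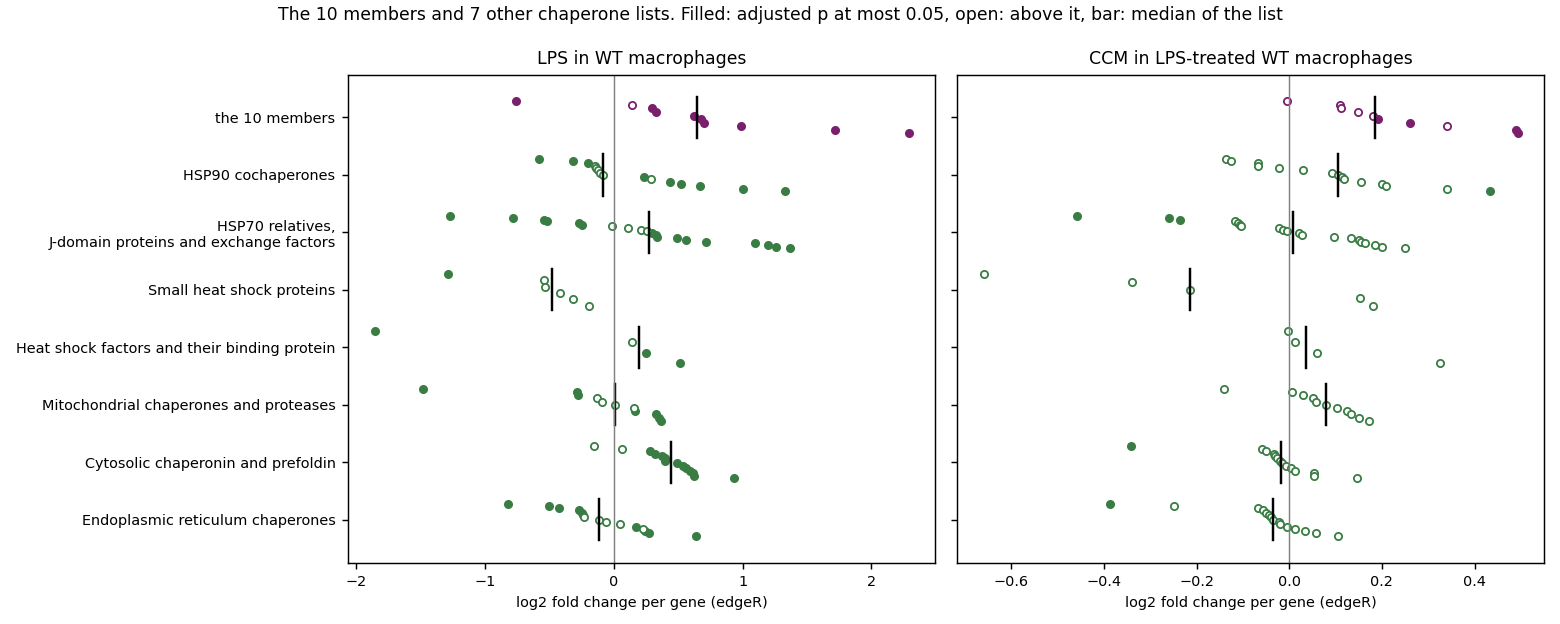
Log2 fold changes of the single genes of the 10-transcript set (purple) and of 7 further chaperone lists (green) for LPS (left) and for CCM under LPS (right) in WT macrophages, with filled points at an adjusted p of at most 0.05 and a bar at each list's median. The cytosolic chaperonin and prefoldin list has 12 of 14 filled points right of 0 on the left (4 right and 2 left of 0 with library totals alone) and a median of -0.02 on the right.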

How the data were processed

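Poly(A) RNA of 36 BMDM cultures was sequenced from paired ends. Per the submitters' processing notes, reads were trimmed with fastp, aligned to mm10 with HISAT2 2.0.5 and assigned to genes with featureCounts 1.5.0-p3. The authors deposited whole-number counts per gene, not normalized, in 1 table, from which all 36 count columns were used. The strand and multimapping settings of the counting are not given in the sources used here.

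The 10 transcripts, the chaperone lists and the tests were chosen with earlier results of these data known. Gene names to be given for each list were set by rule, as the 3 genes with the largest changes in each direction among those called, and for likeness the 5 genes with the highest correlation. Counts were tested with edgeR 4.0.16 (R 4.3.3), with filterByExpr, TMM factors and the quasi-likelihood test, on the libraries of each comparison, without a replicate block. p-values are two-sided and were adjusted by Benjamini-Hochberg over all genes tested, with a threshold of 0.05. The standard error is the size of the log2 fold change divided by the square root of F. Differences between same-numbered libraries and correlations used log2 CPM with a prior count of 2, and correlations used genes with a mean log2 CPM of at least 3. Ranges of levels are the lowest and highest library. The scripts were tested on simulated data. Alternatives were DESeq2 1.42.0, RLE factors, library totals alone, no filter beyond 1 count, summed Hspa1a and Hspa1b, all 36 libraries in 1 fit, a replicate block and leaving out libraries. No 2 libraries agreed within sampling noise (lowest chi-square per degree of freedom 4.34).

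Replicate numbers shared by the treatments of a genotype were checked through the correlation of deviations from the group means. Every pair was over 0.1 for CCM under LPS in WT (0.122 to 0.283), CCM in KO (0.259 to 0.795) and LPS in KO (0.245 to 0.762), and not for the other treatment comparisons, so numbers were read as pairs in these 3 comparisons. Libraries of unlike number had median correlations of -0.111, 0.170 and 0.121 in the same order. In KO the bar of 0.1 therefore does not set like numbers apart from unlike ones, and the blocked KO fits rest on the numbering alone. In WT the lowest values of like numbers were 0.0746 for CCM without LPS and 0.0846 for LPS, close to the 0.122 for CCM under LPS. The bar therefore does not settle whether a WT number marks the same animal in all treatments. The number comes from the sample titles.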

Additional observations from a re-analysis of the deposited data

Results flagged for a closer look

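In the KO groups of 6 libraries, single libraries lay far from the rest, with a gap to the nearest library above the 95% critical value of Dixon's test in 15 of the 40 sets of values tested (chance gives about 1 in 20). Of these 15, 14 were values of KO replicate 6. Hsp90aa1 was low there, at 172 CPM with vehicle, 172 CPM with CCM and 306 CPM with LPS. Hsp90ab1 was high, at 1564 CPM with vehicle, 1657 CPM with CCM and 2038 CPM with LPS, as was Hspa8, at 1738, 1896 and 2949 CPM. Hspe1 was also high in these 3 groups, at 135, 135 and 145 CPM, and Bag3 in the first pair of them, at 126 CPM with vehicle and 117 CPM with CCM. The remaining value was Hspd1 in KO LPS+CCM replicate 5, at 286 CPM. The neutrophil marker sum, highest in KO replicate 6 (983 to 1023 CPM), moves with the first 14 values, and its part in them was not tested.

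The CCM effect differed between LPS-treated and unstimulated WT macrophages by the interaction test for Hspa1a (1.19 on the log2 scale) and Bag3 (0.34). Both calls were near the threshold. Of 12 fits that each left out 1 library, Hspa1a was called in 2 and Bag3 in 0, and a fit of all 36 libraries called 0 of the 10 transcripts. The values in KO macrophages were 1.20 for Hspa1a and 0.34 for Bag3, neither of them called by edgeR on the KO libraries.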

How the results depend on the processing

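Counts of the 10 transcripts called stayed within 1.5 times of those reported in 140 of 172 repeats. This tally includes the comparisons with 0 calls, in which a repeat that again gave 0 counts as unchanged. For CCM under LPS in WT and for the LPS by CCM interaction in WT, the count moved by more than that in most repeats. DESeq2 gave 1 for CCM in unstimulated KO macrophages, 1 for the LPS by CCM interaction in WT, where its adjusted p for Hspa1a was not given, and 1 for that interaction in KO. RLE factors gave 1 for the interaction in WT, as did summing Hspa1a and Hspa1b. Library totals alone gave 9 for CCM under LPS in WT and 5 for LPS in KO. A fit of all 36 libraries gave 1 for CCM in unstimulated KO, 0 for CCM under LPS in WT, 1 for CCM under LPS in KO, 0 for the interaction in WT and 1 for it in KO. The replicate block gave 2 for CCM in unstimulated KO, 9 for CCM under LPS in WT, 1 for CCM under LPS in KO (Hsph1, adjusted p = 0.0179) and 1 for the interaction in KO (Hspa1a, adjusted p = 0.0403), added Hsph1 for LPS in KO and changed no other count by more than 1.5 times. On leaving out libraries the count was 1 to 5 for LPS-treated WT macrophages with CCM, and 0 to 1 for the interaction in WT. The cause was not tested. No paired analysis was possible because WT and KO libraries come from different mice, for KO against WT.

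Over all genes, edgeR called 8 for CCM in unstimulated WT, against 247 by DESeq2, 255 with the block, 377 with no filter beyond 1 count and 0 with all 36 libraries fitted together. For CCM in unstimulated KO it called 0, against 24, 429 and 14, and 141 without KO replicate 6. For CCM under LPS it called 1621 in WT, against 3220 with the block and 17 in the fit of all 36, and 15 in KO, against 180 by DESeq2, 777 and 285, and 170 without KO replicate 6. For LPS it called 9139 in WT and 5644 with all 36 libraries fitted together, and in KO 6433 and 9774 with the block. For the LPS by CCM interaction it called 308 in WT, against 696 by DESeq2, 548 with the block and 0 in the fit of all 36, and 1 in KO, against 12, 81 and 8, and 10 without KO replicate 6. On leaving out libraries the count over all genes was 0 (without any WT CCM library) to 16 for CCM in unstimulated WT, 893 (WT LPS+CCM replicate 2 left out) to 1352 for CCM under LPS in WT, with 958 on leaving out WT LPS replicate 2, and 149 (WT LPS+CCM replicate 3 left out) to 295 for the interaction in WT.

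Directions turned in 18 repeats. With library totals alone the LPS values were -0.11 for Hsph1, -0.089 for Hspd1 and -0.27 for Hspe1 in WT, and -0.15, -0.084 and -0.29 in KO. The same scaling gave -0.0067 for Hsp90ab1 with CCM in unstimulated KO and 0.075 for Hspe1 with CCM under LPS in WT, and RLE factors gave 0.0024 for Hspe1 with CCM in unstimulated KO. On leaving out libraries, values for CCM in unstimulated WT ran from -0.063 to 0.0042 for Hsp90ab1, from -0.086 to 0.041 for Hspd1, from -0.097 to 0.054 for Hspe1 and from -0.052 to 0.10 for Dnajb1. In unstimulated KO they ran from -0.037 to 0.039 for Hspe1 and from -0.0083 to 0.045 for Hsp90ab1, and for CCM under LPS in WT from -0.081 to 0.044 for Hspe1. Depth limits Hspa1a most, with 9 to 30 counts in KO CCM libraries.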
